A study of Mus musculus with 16 samples.

Results

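The genes described here encode the nuclear subunits and some assembly factors of respiratory complexes II, III and IV, the electron carrier cytochrome c and ATP synthase (complex V). They were chosen by symbol alone, as genes named Sdha to Sdhd, Sdhaf, Uqcr, Cyc1, Cycs, Cox followed by a digit, or Atp5. Each is represented by the probe set that names no other gene and has the highest mean over the 16 arrays. This gave 56 of the 12394 genes measured. They are 4 subunits and 3 assembly factors of complex II, 9 subunits of complex III, and cytochrome c. Complex IV has 10 genes grouped as subunits (among them the Cox7a2-like gene Cox7a2l), 6 isoforms used mainly in other tissues and 6 assembly factors. ATP synthase has 17 genes (5 of the F1 part and 12 of the Fo part and stalk).

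Naive CD4 and naive CD8 T cells (CD25-, CD62Lhi, CD44lo) had been purified by sorting spleen and lymph node cells of CD4-Cre Gabpa f/f mice (KO) and of Gabpa f/f mice without Cre (WT). All animals thus carried the floxed alleles. The CD4-Cre transgene acts from the stage at which thymocytes carry both CD4 and CD8, and therefore in both lineages. The 18 h groups had been stimulated in culture through CD3 and CD28 by antibodies, with IL-2 added, and the 0 h groups were lysed directly from the other part of the sorted cells. There were 8 groups (CD4 KO, CD4 WT, CD8 KO and CD8 WT, each at 0 h and 18 h) of 2 arrays. The labels call the 2 arrays biological replicates and do not say how many mice each came from or their age. The strain was C57BL/6, the values are log2 probe set levels as deposited, and p-values measure the spread between these arrays only.

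Complex II oxidizes succinate and passes electrons to ubiquinone, complex III moves them from ubiquinol to cytochrome c, complex IV hands them to oxygen, and ATP synthase uses the resulting proton gradient to make ATP. All subunits of complex II are encoded in the nucleus. Part of the catalytic core of complex III, the core of complex IV and part of Fo come from mitochondrial DNA. The genes above do not include these parts. GABPα is the DNA-binding subunit of GABP, an Ets family factor also called nuclear respiratory factor 2, and is known for binding promoters of cytochrome oxidase subunit genes. Naive T cells are small and respire little, and they build more mitochondria when stimulated.

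Gabpa itself was not lower in KO cells. The main Gabpa probe set lay at 9.79 and 9.67 in CD4 KO cells at 0 h, against 9.07 and 9.22 in CD4 WT cells, and at 18 h at 9.70 and 9.78 in KO, against 8.99 and 9.04 in WT. In CD8 cells it lay at 9.18 and 9.45 in KO at 0 h, against 9.05 and 9.34 in WT, and at 18 h at 9.50 and 9.09 in KO, against 9.24 and 8.74 in WT. The other Gabpa probe set was higher in both KO arrays than in both WT arrays of each lineage and time. In CD4 cells at 0 h it lay at 8.31 and 7.66 in KO, against 6.97 and 6.29 in WT. Where these probes lie relative to the deleted part is not given in the sources used here, so the transcript level does not check the deletion. By immunoblot, the study found GABPα protein barely detectable in CD4 and CD8 T cells of the KO mice. KO and WT stand for arrays labelled so throughout. The difference between 3' and 5' control probe sets, a sign of RNA quality, averaged 3.76 in replicate 2 of CD8 KO at 18 h and 1.58 in replicate 1 of CD4 WT at 0 h, against 1.11 in replicate 2 of CD8 KO at 0 h and between 0.46 and 0.85 in the other 13 arrays. The CD8 lineage genes Cd8a and Cd8b1 averaged 10.09 to 12.31 in CD8 arrays. In CD4 arrays they averaged 5.91 and 6.81 in KO at 0 h, against 6.32 and 8.04 in WT, and 5.26 and 5.51 in KO at 18 h, against 5.50 and 7.15 in WT. Their part in the differences between CD4 KO and CD4 WT cells was not tested. All 5 T cell genes measured (Cd3e, Cd3d, Cd3g, Cd2, Thy1) had values of 8.23 or more in every array. Their mean was 9.79 to 9.95 in CD4 KO cells at 18 h, against 11.25 to 11.40 at 0 h, and 10.00 to 10.08 in CD4 WT cells at 18 h, against 11.37 to 11.39 at 0 h. In CD8 cells it was 10.67 to 10.83 in KO at 18 h, against 11.39 to 11.50 at 0 h, and 10.49 to 10.73 in WT at 18 h, against 11.42 to 11.46 at 0 h. The mean of 3 NK cell genes was also lower at 18 h in each lineage and genotype, for instance 3.41 to 4.35 in CD4 WT cells at 18 h, against 5.44 to 6.64 at 0 h. Of these, Ncr1 stayed between 2.70 and 3.61 in all arrays, whereas Klrd1 lay between 3.10 and 11.77 and Gzma between 3.85 and 8.17. The mean of 4 B cell genes was 4.52 to 4.86 in CD8 KO cells at 0 h, against 5.13 to 5.31 in CD8 WT cells. In CD4 cells at 0 h it was 4.24 to 4.61 in KO, against 4.34 to 5.40 in WT. Over all arrays Cd79a was between 3.54 and 4.26, Cd22 between 3.93 and 4.98, Ms4a1 between 3.48 and 6.38 and Cd79b between 3.45 and 7.57. The part of these genes in the stimulation and genotype differences was not tested. In these bulk samples fewer cells of a type and less RNA per cell cannot be told apart.

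The first question was which respiratory genes differ between KO and WT cells. A gene was called different when limma's moderated test gave an adjusted p under 0.05 (Benjamini-Hochberg over all 12394 genes) and the fold was over 1.5. Very few members passed: Cox6a1 was higher in KO cells of both lineages at 0 h, Cox8a was lower in CD4 KO cells at both times, and Atp5h was lower in CD4 KO cells at 18 h. In CD4 cells at 0 h, 1 member was called higher and 1 lower, where 1.27% of all genes were called (0.533% higher, 0.742% lower). In CD8 cells at 0 h, 1 was called higher and 0 lower, beside 1.63% of all genes (1.13% higher, 0.500% lower). In CD4 cells at 18 h, 0 were called higher and 2 lower, beside 6.86% of all genes (2.72% higher, 4.14% lower). In CD8 cells at 18 h limma called 0 of the 56, beside 2.75% of all genes (1.59% higher, 1.16% lower), and 9 had an unadjusted p under 0.05. The share of all genes at an unadjusted p under 0.05 is not given here or below. Such counts therefore do not set any list of genes apart from all genes. The share of members called was thus 3.57% in CD4 cells at either time and 1.79% in CD8 cells at 0 h, and counts of 1 or 2 genes do not set the members apart from all genes. Counts from fits with arrays left out, here and below, have no share of all genes beside them. They do not show whether the members changed more than all genes. With 1 array left out at a time, the 0 h counts were 0 in 12 of 16 runs for CD4 cells and 14 of 16 for CD8 cells. They stayed at 2 and 1 without either array of CD8 KO at 18 h. The count in CD4 cells at 18 h was 5 without either array of CD8 KO at 18 h, and 1 without replicate 1 of CD4 WT or replicate 2 of CD4 KO at 18 h. In CD8 cells at 18 h it was 4 without replicate 1 of CD8 KO at 18 h and 0 in the other runs. Same-numbered arrays of a lineage deviated together, and with the replicate number as a block limma called 3 (CD4) and 4 (CD8) members at 0 h, and 7 (CD4) and 3 (CD8) at 18 h. Of all genes, the block gave 2.27% and 3.50% at 0 h and 9.81% and 6.42% at 18 h, so that both the members' counts and those of all genes were higher. Adjusted p-values with the block are given with each gene whose call between KO and WT it changes. For Cox17, a copper chaperone gene named after its values were seen, the value was 0.0182 in CD8 cells at 0 h (0.73 ± 0.14, limma). Under the stricter limma test of a change beyond 1.5-fold (treat), which the methods describe, 0 members were called in each of these 4 comparisons.

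The genes called without the block belong to 2 complexes. Cox6a1 and Cox8a encode the widely used forms of small nuclear subunits of cytochrome oxidase (VIa and VIII), and Atp5h encodes subunit d in the peripheral stalk of ATP synthase. CCGGAAG holds the GGAA core that Ets factors such as GABP bind, so the 250 bases before and the 50 bases from the start of these genes are shown. Cox15 is shown with them, which encodes an enzyme of heme A synthesis for cytochrome oxidase and lay lower in the KO arrays of each lineage and time. The sequences are from RefSeq (mouse build GRCm38.p6), read 5′ to 3′ along the gene, with CCGGAAG or its reverse complement CTTCCGG in capitals. The windows are chr19:7217567-7217866 (minus strand) for Cox8a, chr11:115419870-115420169 (minus strand) for Atp5h, chr5:115348909-115349208 (minus strand) for Cox6a1 and chr19:43752951-43753250 (minus strand) for Cox15.
Cox8a: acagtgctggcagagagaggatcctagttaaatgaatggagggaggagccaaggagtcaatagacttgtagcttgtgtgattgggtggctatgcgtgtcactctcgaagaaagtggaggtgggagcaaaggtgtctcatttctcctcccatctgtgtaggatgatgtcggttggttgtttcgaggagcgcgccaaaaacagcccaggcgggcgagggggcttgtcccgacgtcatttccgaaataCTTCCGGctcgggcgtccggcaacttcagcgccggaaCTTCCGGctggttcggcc
Atp5h: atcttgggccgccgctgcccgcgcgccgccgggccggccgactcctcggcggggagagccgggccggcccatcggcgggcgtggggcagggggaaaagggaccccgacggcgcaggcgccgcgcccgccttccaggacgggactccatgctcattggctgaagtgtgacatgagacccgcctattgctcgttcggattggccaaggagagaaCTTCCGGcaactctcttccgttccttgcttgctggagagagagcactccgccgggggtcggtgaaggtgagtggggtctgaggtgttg
Cox6a1: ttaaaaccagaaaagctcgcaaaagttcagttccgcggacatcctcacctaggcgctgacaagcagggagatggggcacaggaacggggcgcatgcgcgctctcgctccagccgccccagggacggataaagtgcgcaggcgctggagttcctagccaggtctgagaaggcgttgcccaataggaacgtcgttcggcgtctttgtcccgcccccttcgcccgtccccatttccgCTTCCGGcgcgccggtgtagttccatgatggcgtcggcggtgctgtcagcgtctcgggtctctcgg
Cox15: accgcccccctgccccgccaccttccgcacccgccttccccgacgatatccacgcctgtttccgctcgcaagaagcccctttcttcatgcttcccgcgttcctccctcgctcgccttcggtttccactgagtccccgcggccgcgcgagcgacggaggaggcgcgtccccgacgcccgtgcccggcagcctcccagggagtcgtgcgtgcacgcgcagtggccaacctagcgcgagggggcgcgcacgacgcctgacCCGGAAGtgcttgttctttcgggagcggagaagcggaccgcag
The letters begin at base -5 and at base 33 in Cox8a, at base -38 in Atp5h, at base -16 in Cox6a1 and at base 8 in Cox15, counted from the start site. They thus stand near the start of genes with higher and of genes with lower values in KO cells.

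Cox6a1 lay at 13.35 and 13.31 in CD4 KO cells at 0 h, against 12.71 and 12.61 in CD4 WT cells. Both KO arrays stood above both WT arrays, and the log2 difference was 0.67 ± 0.15 (SE, n = 2 arrays each, 1.59-fold, limma adjusted p = 0.0477). In CD8 cells at 0 h it lay at 13.32 and 13.43 in KO, against 12.64 and 12.80 in WT, a difference of 0.65 ± 0.15 (1.57-fold, limma adjusted p = 0.0483). The order was the same at 18 h, with 13.52 and 13.42 in CD4 KO cells, against 13.01 and 12.91 in CD4 WT cells, and 13.38 and 13.63 in CD8 KO cells, against 12.98 and 13.22 in CD8 WT cells. These differences of 0.51 ± 0.15 and 0.41 ± 0.15 did not pass (limma adjusted p = 0.0609 and 0.166). No KO array overlapped a WT array in any of the 4 comparisons. Both calls lie close to the threshold. With 1 array left out at a time, the CD4 call was lost in 14 of 16 runs (limma adjusted p 0.0286 to 0.296, difference 0.62 to 0.72). The CD8 call was likewise lost in 14 of 16 (0.0288 to 0.364, difference 0.57 to 0.73), and both were kept only without an array of CD8 KO at 18 h.

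Cox8a lay at 9.13 and 8.99 in CD4 KO cells at 18 h, against 10.55 and 10.39 in CD4 WT cells. This was the largest difference between KO and WT among the 56 genes in any of the 4 comparisons, -1.41 ± 0.22 on the log2 scale (2.65-fold lower in KO, limma adjusted p = 0.00202), and it was called in all 16 runs that left out 1 array. Under treat it missed the threshold (adjusted p = 0.0835). At 0 h Cox8a was at 9.25 and 8.99 in CD4 KO cells, against 10.33 and 10.02 in CD4 WT cells, a difference of -1.05 ± 0.22 (2.07-fold lower, limma adjusted p = 0.0374). This call was lost in 12 of 16 such runs (0.00803 to 0.281) and kept only without an array of CD8 KO. In CD8 cells the KO values were also the lower ones, 9.80 and 10.18 in KO against 10.35 and 10.38 in WT at 0 h, and 9.85 and 10.53 in KO against 10.60 and 10.78 in WT at 18 h. These differences of -0.38 ± 0.22 and -0.50 ± 0.22 did not pass (limma adjusted p = 0.593 and 0.268). The CD8 minus CD4 difference of the KO effect was 0.90 ± 0.31 at 18 h and 0.67 ± 0.31 at 0 h, but neither difference between lineages passed (limma adjusted p = 0.537 and 0.993).

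The arrays of Atp5h did not overlap between genotypes at 18 h and overlapped at 0 h. At 18 h it lay at 11.20 and 10.76 in CD4 KO cells, against 11.94 and 11.80 in CD4 WT cells, a difference of -0.89 ± 0.19 (1.85-fold lower, limma adjusted p = 0.0122). The call was lost without replicate 2 of CD4 KO or replicate 1 of CD4 WT at 18 h (limma adjusted p 0.0088 to 0.156 over the 16 runs). At 0 h it lay at 12.20 and 11.88 in CD4 KO cells, against 11.92 and 11.73 in CD4 WT cells, and the arrays overlapped. In CD8 cells it was at 11.69 and 11.92 in KO against 11.99 and 12.12 in WT at 18 h, a difference of -0.26 ± 0.19 that did not pass (limma adjusted p = 0.567). At 0 h it was at 11.93 and 12.04 in KO against 11.77 and 12.07 in WT.

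**Figure D1:**
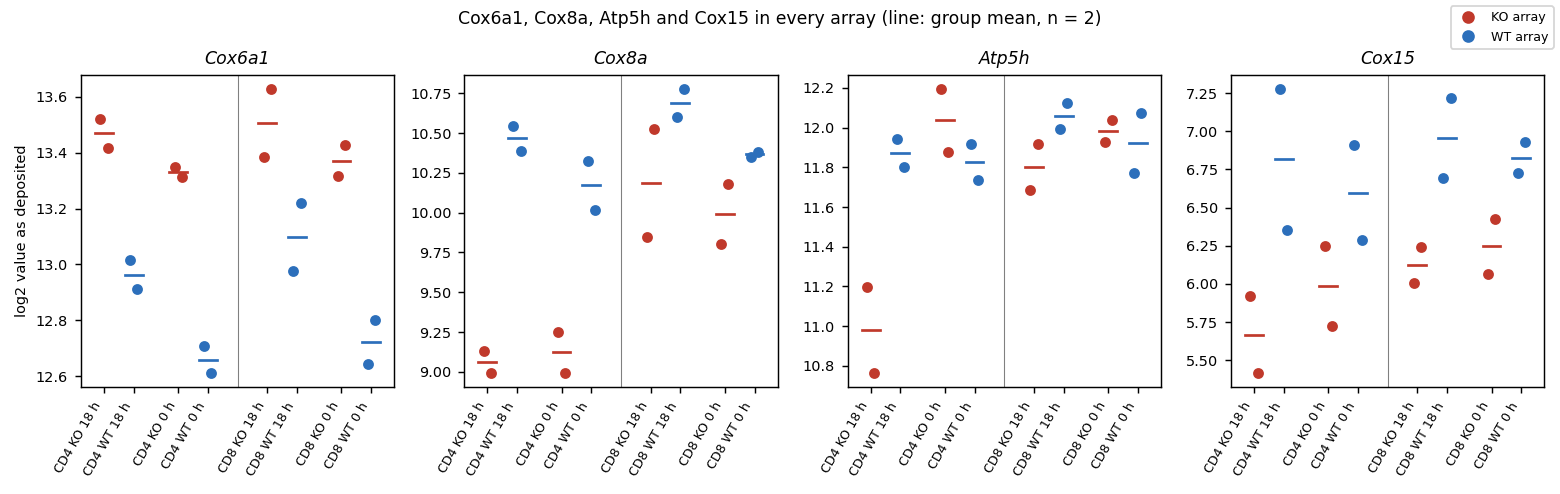
Log2 values as deposited of Cox6a1, Cox8a, Atp5h and Cox15 in the 16 arrays, 1 point per array and a line at the mean of each group of 2, KO in red and WT in blue. Cox6a1 is higher and Cox8a and Cox15 are lower in both KO arrays than in both WT arrays of each lineage and time, while Atp5h is apart in CD4 cells at 18 h (11.20 and 10.76 in KO, 11.94 and 11.80 in WT) and overlaps at 0 h.

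Among the assembly factors, Cox15 and Cox16 had lower values in KO cells at 18 h, which passed with the replicate block and not in the fit without it. Cox15 lay at 5.92 and 5.42 in CD4 KO cells at 18 h, against 7.28 and 6.35 in CD4 WT cells (-1.15 ± 0.33, limma adjusted p = 0.0542). It lay at 6.0 and 6.24 in CD8 KO cells at 18 h, against 6.70 and 7.22 in CD8 WT cells (-0.83 ± 0.33, limma adjusted p = 0.209), and its 0 h differences were -0.61 (CD4) and -0.58 (CD8). Cox16, whose product is needed in human cells to assemble a core subunit of cytochrome oxidase, had differences of -1.27 ± 0.42 (CD4) and -1.10 ± 0.42 (CD8) at 18 h (limma adjusted p = 0.105 and 0.2), and of -0.84 and -0.66 at 0 h. With the block limma called both genes at 18 h, Cox15 with an adjusted p of 0.00057 (CD4) and 0.00889 (CD8) and Cox16 with 0.00425 (CD4) and 0.0174 (CD8). Cox18, which helps to insert that subunit into the membrane, had differences of 0.33 and 0.46 (CD4, 0 h and 18 h) and of 0.49 and 0.26 (CD8, 0 h and 18 h) (limma adjusted p 0.164 to 0.551). Cox15 and Cox8a (lower in KO) and Cox6a1 and Cox18 (higher) were the 4 of 56 members whose KO and WT arrays were apart in the same direction in all 4 comparisons. Of all genes, 4.39% showed this pattern (2.54% higher, 1.85% lower).

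In complex II the values of the 4 subunits differed in size. Sdhd, which anchors the complex in the inner membrane, was at 9.99 and 9.75 in CD4 KO cells at 0 h, against 9.04 and 8.84 in CD4 WT cells, and at 9.79 and 10.21 in CD8 KO cells at 0 h, against 8.81 and 9.31 in CD8 WT cells. Its arrays did not overlap at 0 h, with a difference of 0.94 ± 0.27 in each lineage, which passed with the replicate block (limma adjusted p = 0.165 in CD4 and 0.14 in CD8 without it, 0.034 and 0.0251 with it). At 18 h the differences were 0.13 and 0.07. These values are of the Sdhd probe set of highest mean alone. The WT stimulation calls of Sdhd given below were lost with the mean of all its probe sets. Sdha, the subunit that carries the flavin and oxidizes succinate, had differences between -0.31 and 0.24, the iron-sulfur subunit Sdhb between -0.10 and 0.34, and the other anchor Sdhc between -0.13 and 0.53. The 3 complex II assembly factors had differences between -0.22 and 0.65, the highest of them Sdhaf4 in CD8 cells at 18 h.

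Without the block none of the 9 complex III subunits passed in any KO comparison in limma, and 1, 0, 1 and 1 of them had an unadjusted p under 0.05 in limma, in the order CD4 at 0 h, CD8 at 0 h, CD4 at 18 h and CD8 at 18 h. Their differences lay between -0.98 and 0.71. The lowest was that of the small subunit Uqcr11 in CD4 cells at 18 h, at 8.96 and 8.74 in KO against 9.99 and 9.66 in WT (-0.98 ± 0.39, limma adjusted p = 0.189, and 0.00826 with the block). The core subunit Uqcrc1 lay at 9.33 and 8.81 in CD8 KO cells at 18 h, against 9.81 and 9.60 in CD8 WT cells (-0.64 ± 0.21, limma adjusted p = 0.138, and 0.0351 with the block). The Rieske iron-sulfur protein Uqcrfs1 had differences between -0.29 and -0.13 in the 4 comparisons, and Cyc1, which carries the heme that reduces cytochrome c, between -0.06 and 0.34. Cytochrome c itself (Cycs) differed by 0.18 and 0.11 (CD4, 0 h and 18 h) and by 0.26 and -0.04 (CD8, 0 h and 18 h).

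The other complex IV subunits showed no common direction. Cox4i1, a regulatory subunit, differed at 0 h by 0.09 (CD4) and 0.08 (CD8) and at 18 h by -0.16 (CD4) and -0.03 (CD8), each with an SE of 0.16. The zinc-binding subunit Cox5b differed at 0 h by 0.35 (CD4) and 0.57 (CD8) and at 18 h by -0.50 (CD4) and -0.01 (CD8). Cox6b1, which lies on the side facing cytochrome c, was at 11.16 and 10.88 in CD4 KO cells at 18 h, against 11.96 and 11.77 in CD4 WT cells, and this difference of -0.85 ± 0.24 passed with the block (limma adjusted p = 0.0554 without it and 0.00225 with it). The isoforms known from muscle, testis or lung (Cox4i2, Cox6a2, Cox6b2, Cox7a1, Cox8b, Cox8c) lay between 2.56 and 7.01 in all arrays. The highest of these values, 7.01 for Cox6a2, was in the array with the 3' to 5' difference of 3.76, where the other CD8 KO array at 18 h had 5.31 and the 2 CD8 WT arrays 5.05 and 5.15.

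In ATP synthase, 4 of 5 F1 genes and 10 of 12 genes of the Fo part and stalk had differences below 0 in CD4 cells at 18 h, and 1 of these 17 genes, Atp5h, was called without the block. The catalytic subunit Atp5b lay at 11.58 and 9.95 in CD8 KO cells at 18 h, against 11.71 and 11.64 in CD8 WT cells, a difference of -0.91 ± 0.39 (limma adjusted p = 0.254). The value of 9.95 was that of replicate 2, the array with the 3' to 5' difference of 3.76, and stood apart from the other 3 arrays. The α subunit gene Atp5a1 had differences between -0.23 and 0.16 and the γ subunit gene Atp5c1 between -0.34 and -0.03. Atp5k, which encodes subunit e at the dimer interface, had differences at 0 h of 0.64 ± 0.25 (CD4) and 0.79 ± 0.25 (CD8) (limma adjusted p = 0.357 and 0.186, and 0.0349 in CD8 with the block). Atp5g2, 1 of 3 genes for the rotor subunit c, had a difference of -0.66 ± 0.24 in CD4 cells at 0 h (limma adjusted p = 0.314). Atp5j, a stalk subunit gene, had -0.65 ± 0.20 in CD4 cells at 18 h (limma adjusted p = 0.0869, and 0.0163 with the block).

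**Figure D2:**
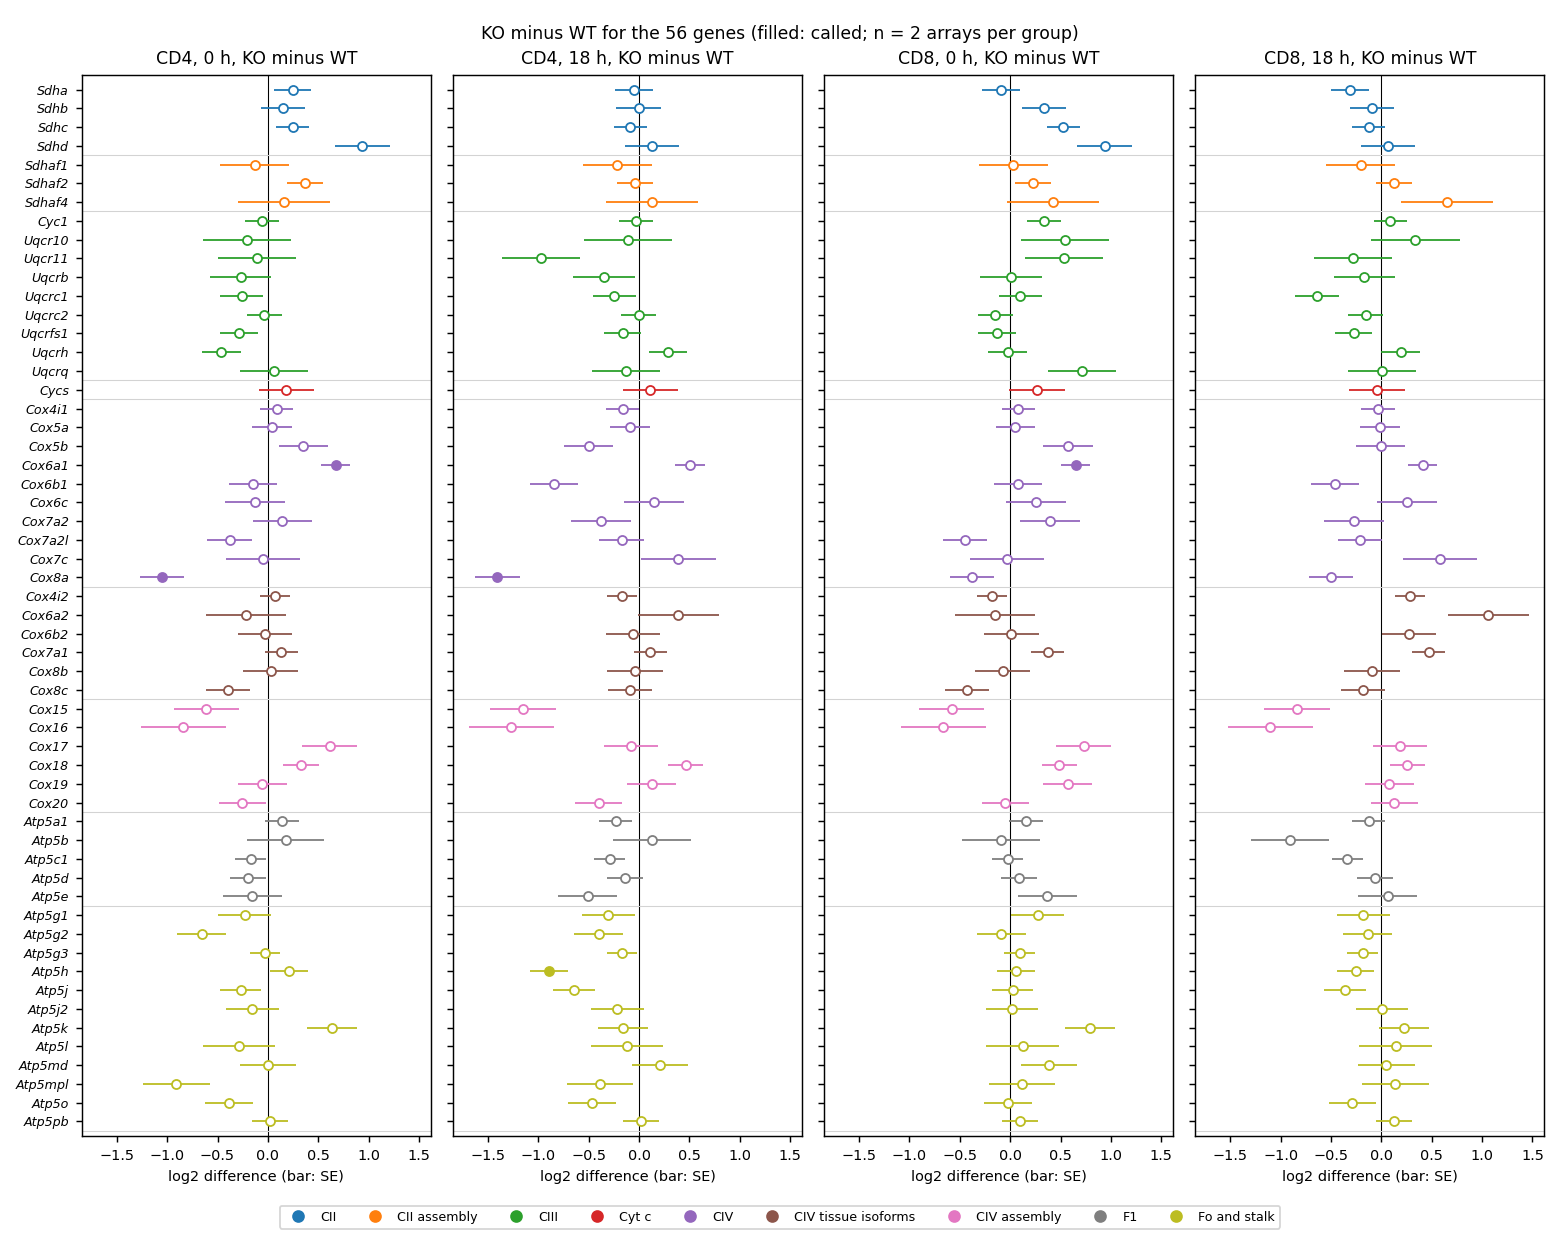
KO minus WT log2 differences of the 56 genes (rows, ordered and coloured by complex), with a panel for each lineage and time and SE bars from limma and 2 arrays per group. Filled points mark the 5 calls made without the replicate block, Cox6a1 in both lineages and Cox8a in CD4 cells at 0 h, and Cox8a and Atp5h in CD4 cells at 18 h, and most other points lie within 0.5 of 0.

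Over all 56 members the KO minus WT differences had medians between -0.14 and 0.09, the lowest in CD4 cells at 18 h. Their medians at 0 h were -0.05 (CD4) and 0.09 (CD8), beside -0.06 and 0.02 over all genes. At 18 h they were -0.14 (CD4) and -0.04 (CD8), beside 0.02 and 0.07 over all genes, with 42 of 56 members below 0 in CD4 cells (5866 of 12394 genes). The median in CD8 cells at 18 h was -0.23 without replicate 2 of CD8 KO and 0.21 without replicate 1, and that in CD4 cells at 0 h was 0.17 without replicate 1 of CD4 WT and -0.29 without replicate 2. Without replicate 1 of CD8 KO, 2 members were called higher and 2 lower in CD8 cells at 18 h, and without replicate 2 the count was 0.

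The letters CCGGAAG were looked for on both strands of the promoters of all members found in the RefSeq table. Of the 42 members with an entry, 18 (42.9%) held them, against 16.4% of the 9883 array genes with an entry and 9.93% of all 27025 genes in the table. The letters GCGCATGCG of nuclear respiratory factor 1 were in 7 of 42 members (16.7%, against 3.31% of the array genes), among them Cycs, Cox6a1 and Uqcrc1, and AAGATGGC of YY1 in 4 of 42 (9.52%, against 4.39%). The GABP and YY1 letters can share their AAG, and the NRF1 letters nearly equal their own reverse complement, so that matches on both strands can overlap. The letters do not measure binding. Cox5b did not hold CCGGAAG, although the study reported GABPα at its proximal promoter in CD4 T cells. Members with CCGGAAG lay on both sides of 0: 4 of 18 were above 0 and 14 below in CD4 cells at 18 h (median -0.31), beside 7 of 24 above and 17 below among members without the letters (median -0.13). In CD8 cells at 18 h the counts were 9 above and 9 below with the letters, and 8 above and 16 below without them. At 0 h they were 7 above and 11 below with the letters in CD4 cells (median -0.14), and 10 and 14 without. In CD8 cells at 0 h most were above 0, 13 of 18 with the letters (median 0.10) and 15 of 24 without. Of the 1616 array genes with the letters, 762 were above and 854 below in CD4 cells at 18 h, 885 and 731 in CD8 cells at 18 h, 818 and 798 in CD4 cells at 0 h, and 1032 and 584 in CD8 cells at 0 h.

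More members were called after stimulation of WT cells than between the genotypes. In WT cells, 5 members were called higher and 3 lower at 18 h than at 0 h in the CD4 lineage, where 26.2% of all genes were called (12.2% higher, 14.0% lower). In the CD8 lineage 8 were called higher and 2 lower, beside 15.2% of all genes (8.21% higher and the rest lower). The members thus had calls in 14.3% and 17.9% of cases, below the share of all genes in CD4 cells and near it in CD8 cells. Most differences were above 0, 44 of 56 in CD4 and 48 of 56 in CD8 WT cells, with medians of 0.32 and 0.42, beside -0.07 and -0.06 over all genes. With the replicate block limma called 14 members in CD4 WT (29.3% of all genes) and 19 in CD8 WT cells (19.1%). Under treat, 1 member was called in CD4 WT cells (Cox7a2l, lower) and 0 in CD8 WT cells. The following counts, from fits with arrays left out, again have no share of all genes beside them. The CD4 WT count was 5 without replicate 1 at 18 h, and the CD8 WT count was 2 and 5 without replicate 1 and 2 at 0 h and 0 without replicate 2 at 18 h. Without replicate 2 of CD8 KO at 18 h and replicate 1 of CD4 WT at 0 h together, which had the largest 3' to 5' differences and were left out as a choice made after seeing the data, the counts were 17 and 18.

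The genes called higher in both WT lineages were Atp5g1 and Atp5g3, which encode the same mature subunit c of the Fo rotor, cytochrome c, Cox5a of complex IV and Sdhd. Atp5g1 lay at 10.96 and 10.83 in CD4 WT cells at 18 h, against 9.92 and 9.52 at 0 h (1.18 ± 0.26, 2.26-fold, limma adjusted p = 0.00449). It lay at 10.63 and 10.87 in CD8 WT cells at 18 h, against 9.41 and 9.59 at 0 h (1.25 ± 0.26, 2.38-fold, limma adjusted p = 0.00649). Cycs lay at 12.29 and 11.77 in CD4 WT cells at 18 h, against 11.46 and 10.59 at 0 h (1.01 ± 0.28, 2.02-fold, limma adjusted p = 0.0145). For both genes both 18 h arrays were above both 0 h arrays in each lineage, and Cycs lay at 11.94 and 11.99 in CD8 WT cells at 18 h, against 10.91 and 11.10 at 0 h (0.96 ± 0.28, 1.95-fold, limma adjusted p = 0.0315).

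Sdhd lay at 10.18 and 9.59 in CD4 WT cells at 18 h, against 9.04 and 8.84 at 0 h (0.95 ± 0.27, limma adjusted p = 0.0192). In CD8 WT cells it lay at 9.70 and 10.35 at 18 h, against 8.81 and 9.31 at 0 h (0.97 ± 0.27, limma adjusted p = 0.0286). Both Sdhd calls were lost with the mean of all probe sets of a gene, and the CD8 call also in the fit within its lineage. Cox5a lay at 12.31 and 12.18 in CD4 WT cells at 18 h, against 11.42 and 11.13 at 0 h (0.97 ± 0.20, limma adjusted p = 0.00236). No 18 h array of either gene overlapped a 0 h array of its lineage, and Cox5a in CD8 WT cells lay at 12.11 and 12.30 at 18 h, against 11.26 and 11.54 at 0 h (0.80 ± 0.20, limma adjusted p = 0.0146). Atp5g3, named after its values were seen, rose by 0.72 ± 0.15 in CD4 and 0.79 ± 0.15 in CD8 WT cells.

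Of the 10 genes grouped as complex IV subunits, Cox7a2l and Cox7c fell in both WT lineages while Cox5a rose. Whether the product of the Cox7a2-like gene Cox7a2l is part of complex IV in these cells was not tested. Cox7a2l lay at 10.12 and 9.79 in CD4 WT cells at 18 h, against 11.60 and 11.56 at 0 h (-1.63 ± 0.22, 3.09-fold lower, limma adjusted p = 0.00013). In CD8 WT cells it lay at 10.74 and 10.63 at 18 h, against 11.50 and 11.81 at 0 h (-0.97 ± 0.22, 1.96-fold lower, limma adjusted p = 0.00955). Cox7c, a small subunit, lay at 6.83 and 6.73 in CD4 WT cells at 18 h, against 8.80 and 7.88 at 0 h (-1.56 ± 0.37, 2.94-fold lower, limma adjusted p = 0.00622). For both genes every 18 h array was below every 0 h array of its lineage, and Cox7c in CD8 WT cells lay at 6.86 and 6.89 at 18 h, against 7.81 and 8.43 at 0 h (-1.24 ± 0.37, 2.37-fold lower, limma adjusted p = 0.037). The remaining WT calls were Uqcrh, the hinge protein of complex III, lower in CD4 cells (-0.63 ± 0.19), and Sdhb, the complex III subunit Uqcrq and the stalk subunit Atp5j, higher in CD8 cells (0.82 ± 0.22, 1.25 ± 0.34 and 0.73 ± 0.20, limma adjusted p 0.0235 to 0.0277). A further probe set of Uqcrq went the other way in CD8 WT cells. The CD8 WT calls of Uqcrq and Cox7c were lost with the mean of all probe sets of a gene. The Cox7c probe set read low. In CD4 WT cells at 18 h its mean was 6.78, where the next lowest gene grouped as a complex IV subunit, Cox7a2l, had 9.95. How well it follows the main transcript was not tested.

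**Figure D3:**
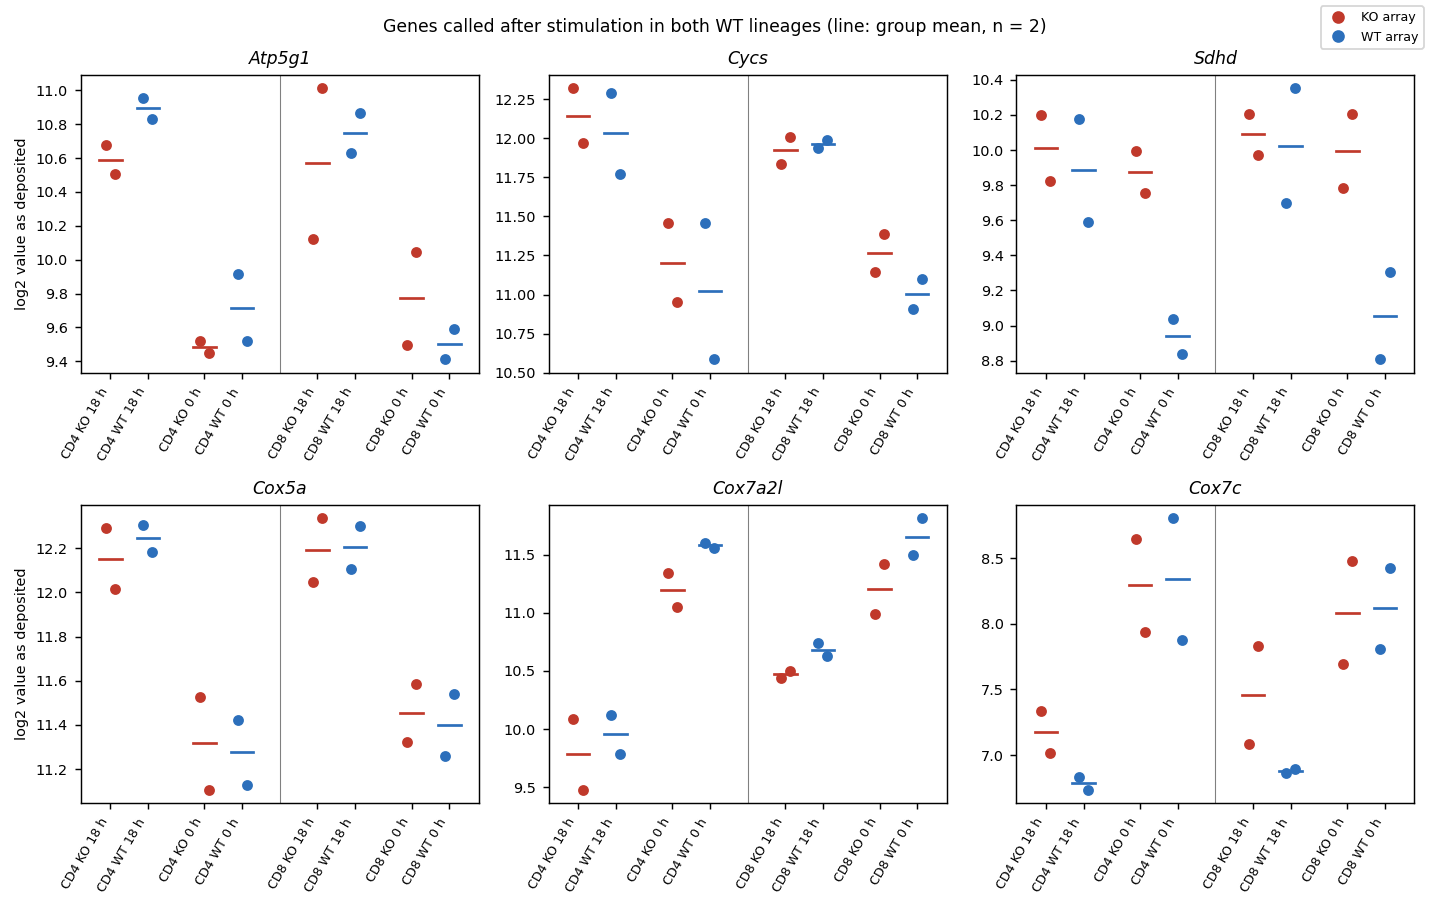
Log2 values as deposited of Atp5g1, Cycs, Sdhd, Cox5a, Cox7a2l and Cox7c in the 16 arrays, 1 point per array and a line at the mean of each group of 2, KO in red and WT in blue. In WT cells of both lineages the first 4 genes are higher and Cox7a2l and Cox7c lower in both 18 h arrays than in both 0 h arrays, while Sdhd in KO cells is already near its 18 h values at 0 h.

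The response of KO cells had calls mainly in the CD4 lineage. In CD4 KO cells 5 members were called higher and 4 lower, beside 24.2% of all genes (11.1% higher, 13.2% lower). In CD8 KO cells 1 was called higher and 0 lower, beside 7.54% of all genes (3.67% higher, 3.86% lower). This was Cox5a, at 12.05 and 12.33 at 18 h, against 11.32 and 11.59 at 0 h (0.74 ± 0.20, limma adjusted p = 0.0397). Without replicate 2 of CD8 KO at 18 h the CD8 KO count was 0, and without replicate 1 it was 8. It was also 0 without either array of CD8 KO at 0 h, CD8 WT at 0 h or CD4 WT at 18 h. With the replicate block limma called 13 members in CD4 KO cells, beside 27.2% of all genes, and 4 in CD8 KO cells, beside 12.4% of all genes: Cox5a, Atp5g1 and Cycs higher and Cox7a2l lower. The CD4 KO count was 4 without replicate 2 of CD4 KO at 0 h and 3 without replicate 1 at 18 h. In CD4 KO cells Atp5g1, Cox5a and Cycs rose by 1.11 ± 0.26, 0.84 ± 0.20 and 0.94 ± 0.28 and Cox7a2l and Cox7c fell, with differences of -1.42 ± 0.22 and -1.12 ± 0.37. Also called there were Cyc1 and Uqcrfs1, each higher by 0.59, Cox20, an assembly factor of complex IV, lower (-0.75 ± 0.23), and Atp5h, at 11.20 and 10.76 at 18 h, against 12.20 and 11.88 at 0 h (-1.06 ± 0.19, 2.08-fold lower, limma adjusted p = 0.000999). Under treat 1 member was called in CD4 KO cells (Cox7a2l) and 0 in CD8 KO cells.

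Whether the response itself differed between genotypes was tested as KO response minus WT response. Without the block 0 members passed in limma in CD4 cells (1.41% of all genes) and 0 in CD8 cells (0.266% of all genes), with 4 members in each at an unadjusted p under 0.05. The CD8 count was 2 without replicate 1 of CD8 KO at 18 h. Atp5h had the largest of these differences in CD4 cells, -1.10 ± 0.26 (95% interval -1.68 to -0.53, limma adjusted p = 0.0721), with a response of -1.06 in KO cells and 0.05 in WT cells. With the replicate block it passed (limma adjusted p = 0.0112), the 1 member to do so, beside 2.82% of all genes, and 0 passed in CD8 cells (0.492% of all genes). In CD8 cells Sdhd was lowest, at -0.87 ± 0.39 (95% interval -1.71 to -0.04, limma adjusted p = 0.53), and it had -0.81 ± 0.39 in CD4 cells. Cox6a2 was highest in CD8 cells at 1.21 ± 0.57, with the array value of 7.01 given above. In its probe set of highest mean, the 18 h minus 0 h difference of Sdhd was 0.14 in CD4 KO and 0.09 in CD8 KO cells, against 0.95 in CD4 WT and 0.97 in CD8 WT cells. Both WT calls were lost with the mean of all probe sets. All 4 complex II subunits had a response difference below 0 in both lineages, between -0.81 and -0.16 (CD4) and between -0.87 and -0.22 (CD8), and none passed with or without the block. The median response of the 56 genes was 0.13 in CD4 KO against 0.32 in CD4 WT cells and 0.21 in CD8 KO against 0.42 in CD8 WT cells, beside 0.03 and -0.07, and 0.02 and -0.06, over all genes. The CD8 KO median was -0.01 without replicate 2 and 0.49 without replicate 1 at 18 h.

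**Figure D4:**
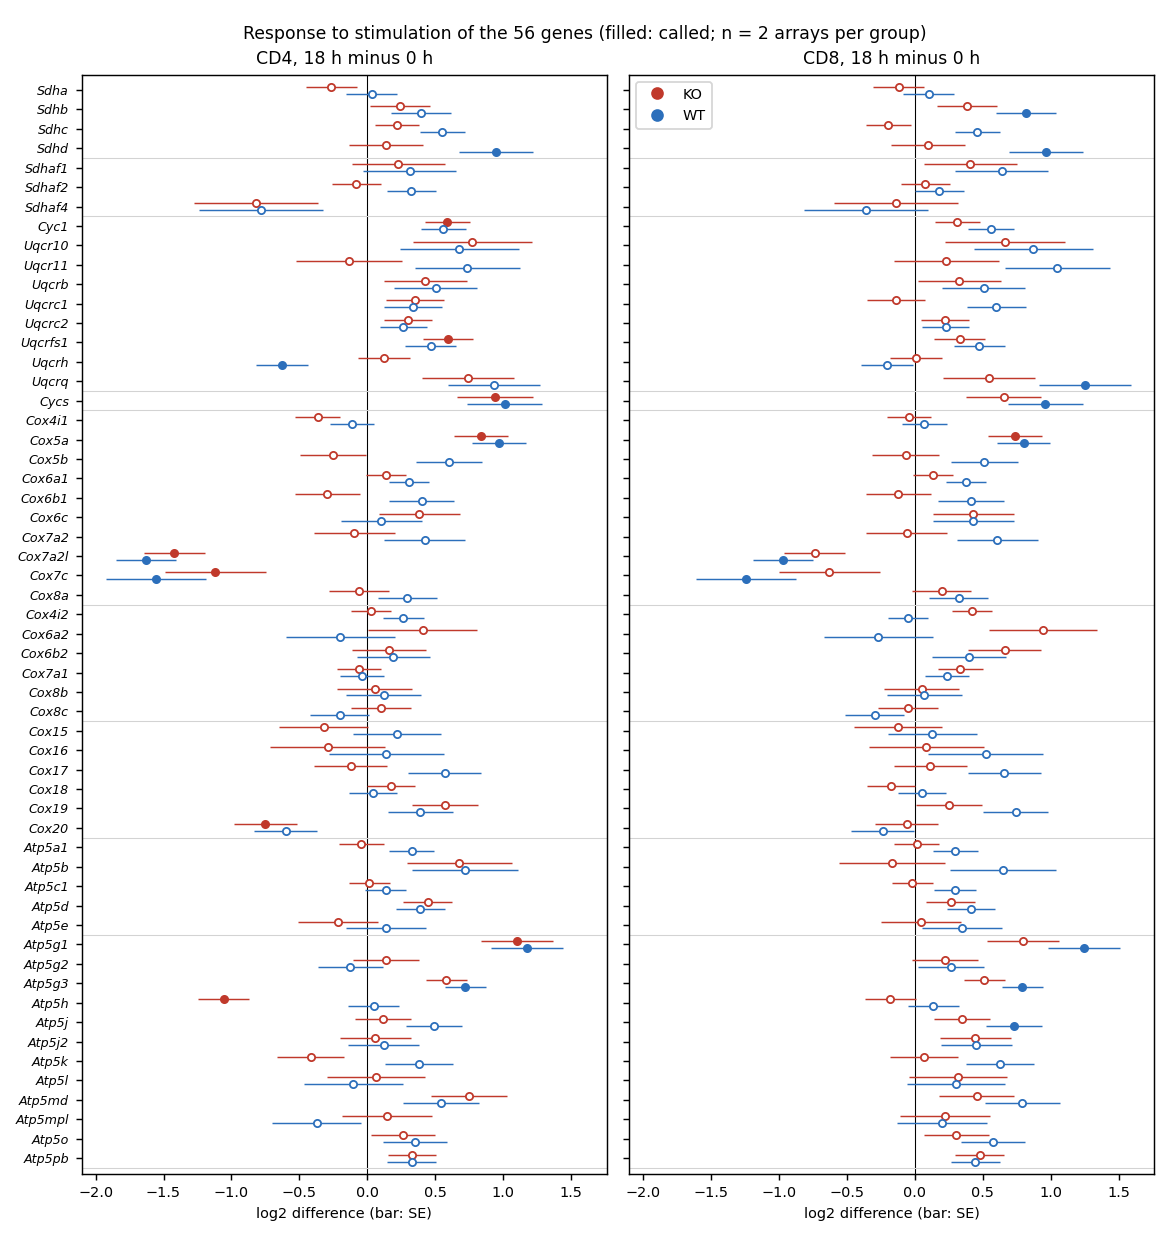
Differences between 18 h and 0 h on the log2 scale for the 56 genes in CD4 and CD8 cells, KO in red and WT in blue, with SE bars from limma and 2 arrays per group. Filled points are called, 9 in CD4 KO, 8 in CD4 WT, 1 in CD8 KO and 10 in CD8 WT cells, and most WT points lie to the right of 0.

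The last comparison was between the lineages. Without the block limma called 0 of 56 members between CD8 and CD4 WT cells at 0 h (1.28% of all genes) and 0 at 18 h (3.28% of all genes), with 1 member at an unadjusted p under 0.05 at each time. At 0 h this was Sdhaf1, a complex II assembly factor, at 7.31 and 7.68 in CD8 WT cells, against 8.86 and 8.11 in CD4 WT cells (-0.99 ± 0.34, 95% interval -1.73 to -0.25, limma adjusted p = 0.358). At 18 h it was Cox7a2l, at 10.74 and 10.63 in CD8 WT cells, against 10.12 and 9.79 in CD4 WT cells (0.73 ± 0.22, 95% interval 0.25 to 1.21, limma adjusted p = 0.118). With the replicate block both passed (limma adjusted p = 0.014 for Sdhaf1 and 0.0295 for Cox7a2l), beside 2.07% of all genes at 0 h and 5.66% at 18 h. The difference of the KO effect between lineages passed for 0 members at 0 h (0.00% of all genes) and 0 at 18 h (0.0403% of all genes), with 1 and 2 at an unadjusted p under 0.05 in limma. Without replicate 1 of CD8 KO at 18 h, 3 passed at 18 h. With the block limma called 0 at either time, beside 0.0242% of all genes at 0 h and 0.137% at 18 h.

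Set beside related mitochondrial genes, the members stood as follows, and the differences between these lists were not tested. In CD4 cells at 18 h, 0 members were called higher and 2 lower in KO of 56, 0 and 4 of the 39 complex I genes (Nduf) and 0 and 8 of the 74 mitochondrial ribosomal protein genes. The medians were -0.14, -0.29 and -0.25, and of all genes 2.72% were called higher and 4.14% lower. After stimulation of CD4 WT cells, 5 members were called higher and 3 lower, 9 and 1 of the complex I genes, and 37 and 0 of the mitochondrial ribosomal protein genes, with medians of 0.32, 0.41 and 0.72, where 12.2% of all genes were called higher and 14.0% lower. Outside the complexes, genes that serve them were called between KO and WT as follows. Of 22 further assembly factors of complexes III to V, 2 were lower in CD4 KO cells at 18 h, where 4.14% of all genes were, and 0 passed in the other 3 comparisons in limma. Counts this small do not set the list apart from all genes. They were Sco2, which delivers copper to cytochrome oxidase (mean 6.19 in KO against 7.70 in WT, -1.51 ± 0.28, 2.86-fold lower, limma adjusted p = 0.00608), and Bcs1l, which inserts the Rieske protein into complex III (6.49 in KO against 7.65 in WT, -1.16 ± 0.29, limma adjusted p = 0.0294). Of 16 genes of ubiquinone and heme synthesis, 2 were likewise lower in CD4 KO cells at 18 h, beside the same 4.14%, the heme synthesis enzymes Uros (-0.93 ± 0.19) and Urod (-0.84 ± 0.17, limma adjusted p = 0.0123 and 0.00959). Of 16 regulators, Gabpb1, the partner subunit of GABPα, was higher in KO in all 4 comparisons, by 1.37 and 1.46 (CD4, 0 h and 18 h) and 1.63 and 1.43 (CD8, 0 h and 18 h) (each SE 0.22), and Gabpa, as given above, in CD4 cells at 18 h. The 3 carriers of adenine nucleotides and phosphate and 8 other mitochondrial genes had 0 calls in the KO comparisons in limma, with 1, 0, 0 and 0 of the 3 and 2, 1, 3 and 2 of the 8 at an unadjusted p under 0.05.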

How the data were processed

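Gene expression of sorted mouse T cells was measured on 16 Affymetrix arrays after 2 rounds of RNA amplification, 2 in each of 8 groups taken from the labels. The methods name the arrays M430 2.0. Deposited values exist for 22690 probe sets, and genes without one among them are not covered here. The deposited values are log2 probe set levels that the authors had normalized, between 1.62 and 14.45, and the submitters' processing notes name affy and limma, with the versions not given in the sources used here. As array data hold no read depth, the number of arrays limits the precision.

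Of 22690 probe sets, 20393 name 1 gene, 691 several, and 1606 none (64 are controls). The first kind gave 12394 genes, each by its probe set of highest mean. limma 3.58.1 in R 4.3.3 was fitted with 8 group means over all 16 arrays, without a replicate term, and its moderated test was run for 14 comparisons, with Benjamini-Hochberg adjustment over all 12394 genes and a fold over 1.5. This script was tested on simulated data. Named genes were the members called between genotypes or in a response difference, the 4 largest rises and falls called in both WT lineages, members called between lineages, up to 3 examples per complex by mean KO minus WT difference in size, and Cycs with 9 core subunits. Others named had low counts or stood out, and were chosen after their values were seen. Members and gene lists were chosen with earlier results of these data known.

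Promoter letters were searched in RefSeq sequences of GRCm38.p6. Protein sequences were not used here. Alternatives were treat, array weights, median centring, quantile normalization, a filter on low levels, the mean of all probe sets, a replicate block, fits within a lineage and fits without arrays.

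Same-numbered arrays deviated together within a lineage (r 0.26 to 0.45 in CD4 and 0.18 to 0.56 in CD8) and oppositely across lineages (r -0.60 to -0.12). The 0 h and 18 h cells were parts of 1 sort, although the labels do not tie the numbers to animals, and KO and WT arrays of a number came from different mice. The numbers were therefore taken to pair the arrays within a lineage, a reading made after the calls of both fits were known. The blocked value is given where it changes a call between genotypes, between lineages or in a response difference. For the 18 h responses only the blocked counts are given, and genes gained with the block are named in CD8 KO cells alone.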

Additional observations from a re-analysis of the deposited data

How the results depend on the processing

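The values given in this paragraph are numbers of the 56 members called, and no member call reversed in any setting. Shares of all genes are not set beside them here, so these counts do not show whether the members changed more than all genes. Of 33 member calls over all comparisons, 7 were kept in every run that left out 1 array and 2 in all 10 other settings, namely Cox7a2l in the CD4 KO and CD4 WT responses. With 1 array left out at a time, the count for KO against WT was 0 to 2 in CD4 and 0 to 1 in CD8 at 0 h (2 and 1 with all arrays), and 1 to 5 in CD4 and 0 to 4 in CD8 at 18 h (2 and 0). The highest of these at 18 h came without an array of CD8 KO at 18 h (5 without either, 4 without replicate 1) and the lowest in CD4 without replicate 1 of CD4 WT or replicate 2 of CD4 KO at 18 h. For the 18 h response it was 3 to 10 in CD4 KO, 0 to 8 in CD8 KO, 5 to 12 in CD4 WT and 0 to 15 in CD8 WT (9, 1, 8 and 10). For the response difference it was 0 to 2 in CD8, for the lineage difference of the KO effect at 18 h 0 to 3, each highest without replicate 1 of CD8 KO at 18 h, and 0 throughout in the other 4 comparisons. Under treat the counts for KO against WT were 0 in CD4 and 0 in CD8 at 0 h and 0 in CD4 at 18 h, and for the response 1 in CD4 KO, 0 in CD8 KO, 1 in CD4 WT and 0 in CD8 WT. Array weights gave 2 for CD8 KO against WT at 0 h, 6 for CD4 at 18 h and 0 for the CD8 KO response. The weights were equal for the 2 arrays of each group, 0.35 for both of CD8 KO at 18 h. They therefore cannot set the array with the highest 3' to 5' difference apart from its replicate. The mean of all probe sets gave 0 for CD4 at 0 h, 4 for CD4 at 18 h and 2 for the CD8 KO response. Leaving out genes under the median level gave 4 for CD4 at 18 h and 2 for the CD8 KO response, and quantile normalization also gave 2 for the CD8 KO response. Median centring gave 0 for CD4 and for CD8 at 0 h and 0 for the CD8 KO response, and put the median of all genes at -0.13 in CD4 at 0 h and 0.15 in CD8 at 18 h. Fits within a lineage gave 1 for CD4 and 0 for CD8 at 0 h, 0 for the CD8 KO response and 5 for the CD8 WT response. Leaving out the 3 arrays with the largest 3' to 5' differences, the counts were 0 in CD4 and 0 in CD8 at 0 h, 7 in CD4 and 1 in CD8 at 18 h, 0 in the CD8 KO, 17 in the CD4 WT and 18 in the CD8 WT response. Without replicate 2 of CD8 KO at 18 h and replicate 1 of CD4 WT at 0 h together, a setting chosen after seeing the data, they were 0, 2, 7, 1, 0, 17 and 18 in the same order. With the replicate block within each lineage the counts were 4 for CD8 at 0 h, 7 for CD4 and 3 for CD8 at 18 h, 4 for the CD8 KO, 14 for the CD4 WT and 19 for the CD8 WT response, 1 for the CD4 response difference (Atp5h, limma adjusted p = 0.0112), and 1 for CD8 against CD4 WT at 0 h and 1 at 18 h, and the crossed replicate block gave 1 and 1 for these last comparisons. The cause of these shifts was not tested. Each group had 2 arrays, which limits what could pass the test.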

Other observations

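In the comparisons where a gene was called between KO and WT, its other probe sets had differences of the same sign. The 2 other Cox8a probe sets had -1.13 and -0.17 in CD4 cells at 0 h and -1.37 and -0.38 at 18 h, a further Atp5h probe set had -1.05 in CD4 cells at 18 h, and a further Cox6a1 probe set had 0.59 in CD4 cells and 0.94 in CD8 cells at 0 h. The 3 other probe sets of Cox15, which was not called without the replicate block, had -1.27, -1.49 and -0.0017 in CD4 cells at 18 h.

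In replicate 2 of CD8 KO at 18 h, the array with the 3' to 5' difference of 3.76, members moved in both directions from replicate 1. The complex III subunit Uqcr10 lay at 11.34 in replicate 2 and 9.97 in replicate 1, while Atp5b lay at 9.95 and 11.58. The median of the 56 members was 10.80 in replicate 2 and 10.31 in replicate 1.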
